A study of Mus musculus with 19 samples.

Results

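The accessible regions of the mouse Spi1 locus are the consensus ATAC-seq peaks that overlap chromosome 2 from 90870000 to 90965000 on mm39. They numbered 32 of the 140383 peaks in the deposited list. Peaks were taken by position alone, but the locus was chosen with earlier results of these data known. ATAC-seq marks open chromatin through the sites where Tn5 transposase can insert adapters. The cells were mouse bone marrow-derived macrophages, grown from marrow for 7 days with 4-hydroxytamoxifen given each day. Wild-type cells came from Csf1r-Cre mice and Smarca5-/- cells from Smarca5lox/lox Csf1r-Cre mice, so Cre and 4-hydroxytamoxifen were common to both genotypes. The Cre is driven from Csf1r, a gene of the macrophage lineage, and the ages of the mice are not given in the labels. In both genotypes, untreated cells were set beside cells stimulated for 1 or 2 h with the bacterial product LPS (10 ng/ml) or with interferon beta (100 U/ml). Of the 19 samples, each of 9 groups had 2, and wild-type cells stimulated with interferon beta for 1 h had 1. The list gives 1 set of values per peak for the whole series, so no value below can be assigned to a genotype or treatment, no replicate error exists, and the depth behind each value is unknown.

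Spi1 encodes PU.1, an ETS-family transcription factor that binds purine-rich sites around a GGAA core and is required for the myeloid and B-cell lineages. High PU.1 favours the macrophage fate, and PU.1 opens or holds open many enhancers of macrophage genes. Its own gene is controlled by a promoter and by upstream elements that PU.1 itself binds. The best known are the upstream regulatory element, described in the mouse about 14 kb upstream of the main promoter, and a myeloid enhancer described about 12 kb upstream of it. The gene span used here, from 90912735 to 90946101 on the plus strand, is the one given for the gene as a whole. A gene table for another build, GRCm38.p6, lists 4 RefSeq transcripts of Spi1, and the start of each on mm39 was not used here.

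The same table gives the order of genes along the chromosome. Upstream of Spi1 lie Gm39874, a long noncoding RNA, Slc39a13, a zinc transporter gene, Psmc3, a proteasome ATPase gene, and Rapsn, whose product clusters acetylcholine receptors at the neuromuscular junction. Downstream lies Mybpc3, which encodes cardiac myosin-binding protein C. The positions of these genes on mm39 were not used here. Peaks outside the Spi1 span were therefore not assigned to a gene, and peaks inside it were not assigned to exons or introns.

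Of the 32 peaks, 9 lay upstream of the span, 18 within it and 5 downstream. Each peak is described by the following quantities. Fold is the authors' enrichment over local background, −log10 q is the authors' significance, and width is counted in bp; the first pair are read by the narrowPeak layout, since the list has no header. Over the locus, fold ran from 3.11 to 35.0 with a median of 6.74, below the median of 9.85 over all peaks in the list. Fold was under the list median in 26 of the 32 peaks. The −log10 q ran from 12.4 to 1122 with a median of 60.5, above the list median of 45.3. It was in the top quartile of the list in 9 of 32 peaks, or 28.1%, against 25.0% of all peaks. Widths ran from 2 to 729 bp with a median of 174 bp, against 196 bp in the list. The peaks at Spi1 were thus of low fold for this list, while their −log10 q was not low.

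**Figure D1:**
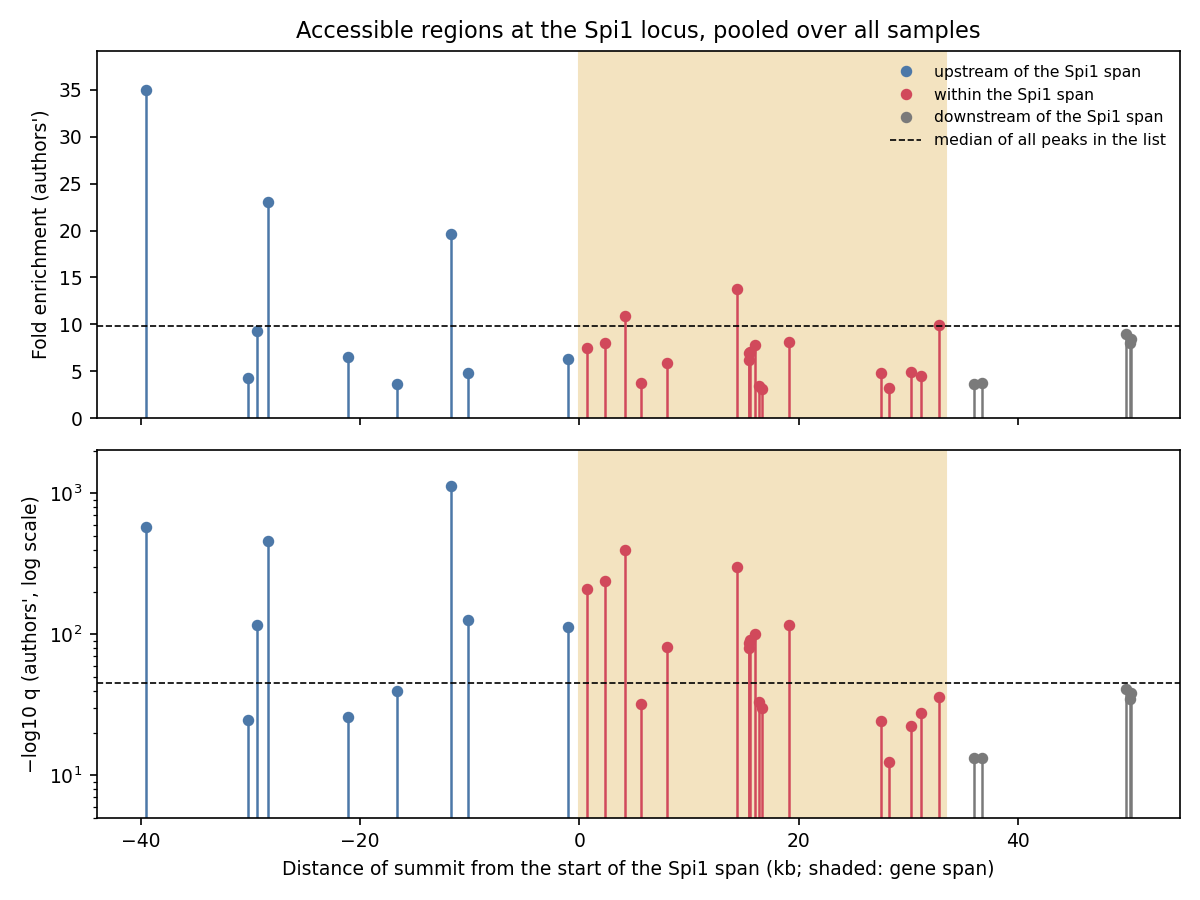
Fold enrichment (upper panel) and −log10 q (lower panel, log scale) of the 32 peaks against the distance of each summit from the start of the Spi1 span, in kb; the shaded area is the span and the dashed line the median of all peaks. The highest folds lie upstream, at 35.0, 23.1 and 19.6, while the first 20 kb of the span holds a run of peaks with −log10 q up to 396.

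The start of the span had an accessible region close to it but not on it. The peak from 90913188 to 90913549 had its summit 663 bp downstream of the start, and was the only peak within 1 kb. It was 362 bp wide, with a fold of 7.47 and a −log10 q of 210. The peak from 90911559 to 90911725 lay on the other side, with its summit 1.08 kb upstream, a fold of 6.34 and a −log10 q of 113. Neither reached the median fold of the list, although both had a −log10 q more than 2 times its median of 45.3.

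The first 20 kb of the span held 13 of its 18 summits, a density of 6.5 per 10 kb against 3.74 per 10 kb in the rest of the span and 2.11 per 10 kb upstream. These 13 count touching peaks singly, and the cut at 20 kb leaves most of a stretch of 8.13 kb without a peak to the rest of the span. After the peak near the start came a peak from 90914637 to 90915143, with its summit 2.3 kb downstream of the start. At 507 bp it was the widest peak in the span, with a fold of 8.03 and a −log10 q of 240. The next, from 90916784 to 90916969, lay 4.15 kb downstream with a width of only 186 bp. Its −log10 q of 396 was the highest in the span, and its fold was 10.9. Of these 3 consecutive peaks, the one farthest from the start had the highest −log10 q and the narrowest width. Next came 2 weaker peaks, with −log10 q values of 31.9 at 5.63 kb and 80.9 at 8.0 kb.

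The highest fold within the span, 13.8, was 14.3 kb inside it. This peak ran from 90926938 to 90927297, was 360 bp wide and had a −log10 q of 303. No peak lay in the 6.07 kb before it, whereas 6 more peaks lay within the next 2.3 kb. Of these, 3 touched end to end between 90928214 and 90928332, with −log10 q values of 79.9, 87.6 and 91.0. A separate peak from 90928647 to 90928789 had a −log10 q of 100.7. Another 2 touched between 90929029 and 90929399, with lower values of 33.2 and 30.0. Among these touching peaks were widths of 2 and 14 bp. The list holds 0 overlapping neighbours, and whether touching peaks are parts of a single open region was not tested. A last peak of this stretch, from 90931846 to 90932007, lay 19.2 kb inside the span with a −log10 q of 116.

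**Figure D2:**
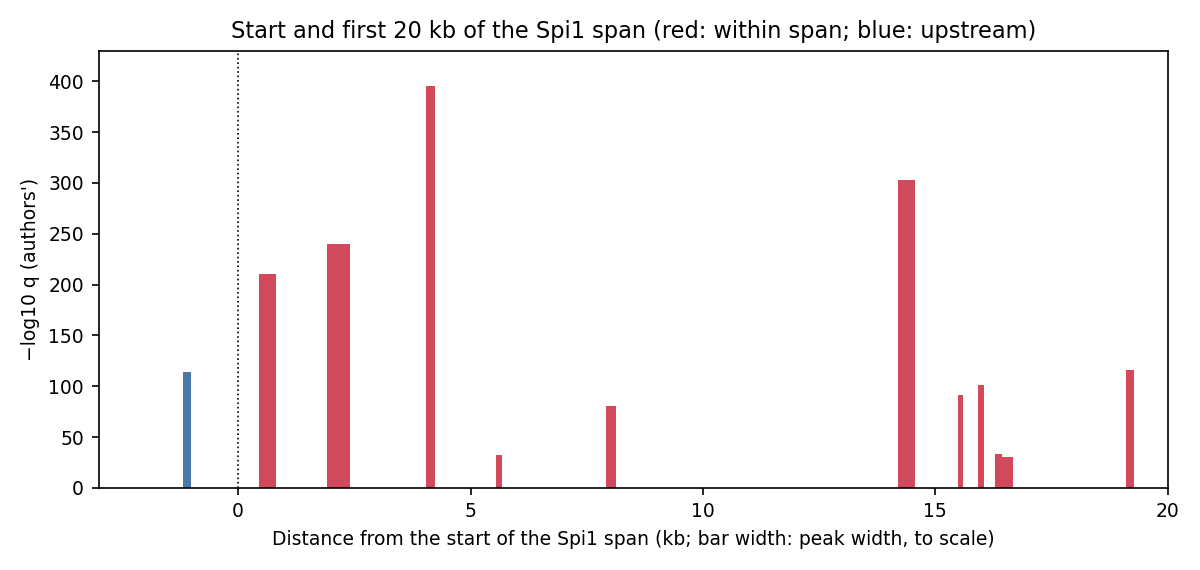
The −log10 q of each peak near the start and in the first 20 kb of the Spi1 span, with bars as wide as the peaks and placed by distance in kb from the start (dotted line). Peaks fall into a group over the first 8.0 kb, led by −log10 q values of 210, 240 and 396, and a group that opens 14.3 kb inside the span with a −log10 q of 303.

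Distances in the published naming of Spi1 elements run from the main promoter, so 2 reference points were tried. Counted from the start of the span, 0 peaks lay within 1 kb of the point 14 kb upstream, and the nearest summit was 2.26 kb away. At 12 kb upstream there was 1 peak, from 90900453 to 90901181. Counted instead from the summit of the peak of highest fold in the span, 1 peak lay within 1 kb of each point. Its 14 kb neighbour was the peak near the span start, with a summit 13.7 kb upstream. The 12 kb neighbour was the widest peak of the span, with a summit 12 kb upstream to within 0.042 kb, and the narrow peak of −log10 q 396 lay 10.2 kb upstream. This second reference point was chosen after the positions were seen. From it, both points fall in the first 20 kb of the span, where summits numbered 6.5 per 10 kb, against 2.11 per 10 kb upstream of the span. How often any point in so dense a stretch has a peak within 1 kb was not computed, so the matches identify no element. Whether that peak is the main promoter was not tested, since no transcript start on mm39 was used here, so the peaks are given by position and not by element name.

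The remaining 5 peaks of the span lay between 27.5 and 32.8 kb inside it, after a stretch of 8.13 kb without a peak. Their −log10 q ran from 12.4 to 35.9, so all 5 were below the list median of 45.3, as against 3 of 13 in the first 20 kb. Their folds ran from 3.17 to 9.92. The highest, 9.92, belonged to the peak from 90945500 to 90945656, near the end of the gene, and was the only one of the 5 above the list median fold. Its −log10 q was 35.9.

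Upstream of the span, the peaks were sparser than within it but held the strongest of the window. Other genes also lie upstream of Spi1, and whether these peaks belong to Spi1 or to a neighbouring gene was not tested. Fold was in the top quartile of the list in 3 of the 9, against 0 of 18 in the span and 0 of 5 downstream. In the whole list that share is 25.0% by construction, and over the 32 peaks it was 9.38%. The highest fold, 35.0, was at the first peak of the window, from 90873018 to 90873353, 39.5 kb upstream, with a −log10 q of 581. Next was the peak from 90884079 to 90884770, 28.4 kb upstream and 692 bp wide, with a fold of 23.1 and a −log10 q of 459. The third was the peak from 90900453 to 90901181, 11.7 kb upstream. At 729 bp it was the widest of the 32, with a fold of 19.6. Its −log10 q of 1122 was the highest of the locus and exceeded that of 99.2% of all peaks in the list. The other 6 upstream peaks had folds from 3.61 to 9.24.

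Downstream of the span, all 5 peaks had a −log10 q below the list median of 45.3. Their folds were also all below the list median of 9.85. Their median fold was 8.06, against 6.5 upstream and 6.58 in the span. That order depends on how peaks are split, since the last downstream peaks lay 4 bp apart. With peaks within 100 bp merged, the downstream folds were 3.67, 3.73, 9.0 and 8.41. A pair lay 36.0 and 36.7 kb from the start, with folds of 3.67 and 3.73 and a −log10 q of 13.4 for both. After 13.0 kb without a peak, the longest gap of the locus, 3 peaks lay close together 49.9 to 50.3 kb from the start. Their folds ran from 8.06 to 9.0 and their −log10 q from 35.1 to 41.0. The last of them ended at 90963018. Beyond the window, the nearest peak downstream ran from 90967090 to 90967283 with a fold of 5.68 and a −log10 q of 22.5. The nearest upstream ran from 90863501 to 90863652 with a fold of 24.0 and a −log10 q of 150.

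Fold and −log10 q ranked the peaks differently, so each −log10 q was divided by the median of all peaks in the same percentile of fold. This relative −log10 q has a median of 1 over the list by construction. At Spi1 its median was 2.19, and 28 of the 32 peaks were at or above 1. It reached 2 in 19 of 32 peaks, or 59.4%, against 21.0% of the list, and 5 in 8 of 32, or 25.0%, against 4.19%. The −log10 q lay above the 90th percentile of peaks of like fold in 14 of 32, or 43.75%, against 10.0% of the list by construction. These shares describe neighbouring peaks of 1 locus, which are not independent replicates.

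High relative values were unevenly placed along the locus. The highest relative values belonged to the peak near the span start, at 10.3, to the 507 bp peak after it, at 10.0, and to a peak 10.2 kb upstream from 90902423 to 90902652, at 10.0. The last of these had a fold of only 4.82 with a −log10 q of 127, where peaks of like fold had a median of 12.7. The narrow peak 4.15 kb inside the span had 9.77, and the widest peak, 11.7 kb upstream, had 7.67. In the first 20 kb of the span the lowest of 13 values was 1.94 and the median 4.86. In the rest of the span the median was 1.45 and in the 5 downstream peaks it was 1.46, with none at 2 or more downstream. The peak of highest fold, 39.5 kb upstream, stood at 0.920, close to peaks of like fold.

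**Figure D3:**
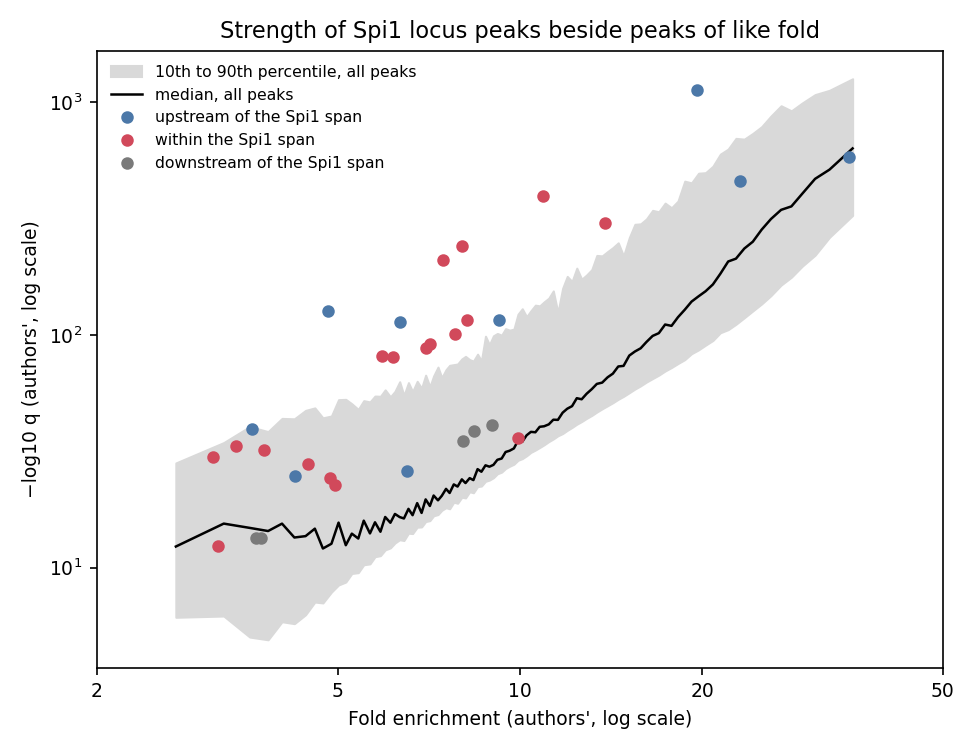
The −log10 q of each Spi1 locus peak against its fold, both on log scales, over the median (line) and the 10th to 90th percentile (grey) of all peaks in bins of fold. Of the 32 peaks, 14 lie above the grey band, 10 of them within the span and 4 upstream, and the 5 downstream peaks lie inside it.

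The locus was among the densest stretches of its length. Over the autosomes and X, 26986 windows of 95001 bp were laid end to end in step with the Spi1 window. The median window was overlapped by 2 peaks, and 30 windows, or 0.111%, were overlapped by at least 32, the Spi1 window included. With peaks within 100 bp merged, which joins touching peaks, Spi1 held 28 regions and 0.341% of windows held at least as many. With only peaks of −log10 q no lower than the list median it held 16, a number reached by 1.03% of windows. With all peaks, on chromosome 2, 6 of 1880 windows had that many. The window before it held 17 peaks and the window after it 18. Neighbouring peaks at Spi1 were separated by a median of 1323 bp, against 5089 bp in the list, and 13 of 31 gaps, or 41.9%, were under 1 kb, against 18.6% in the list. Of those 13, 3 were gaps of 0 bp between touching peaks. The dense windows also had folds below the list median of 9.85. Among the 1202 windows with at least 20 peaks, the median fold of a window had a median of 8.47 (quartiles 7.5 and 9.68), and 13.7% were at or below the 6.74 of Spi1. Among the 57 windows with at least 30 peaks it was 6.52 (quartiles 5.42 and 7.25), and 59.6% were at or below Spi1. The median relative −log10 q of those 57 windows had a median of 2.09 (quartiles 1.65 and 2.68), and 43.9% were at or above the 2.19 of Spi1, against 20.3% of the 1202. Beside windows of like density, Spi1 was therefore near the middle by both measures. How far density itself moves fold and −log10 q was not tested. The highest −log10 q in the Spi1 window, 1122, at a peak upstream of the span, was matched or exceeded in 3.90% of all windows, of which 10927 hold no peak. Among the 1202 windows with at least 20 peaks, 177 matched or exceeded it.

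**Figure D4:**
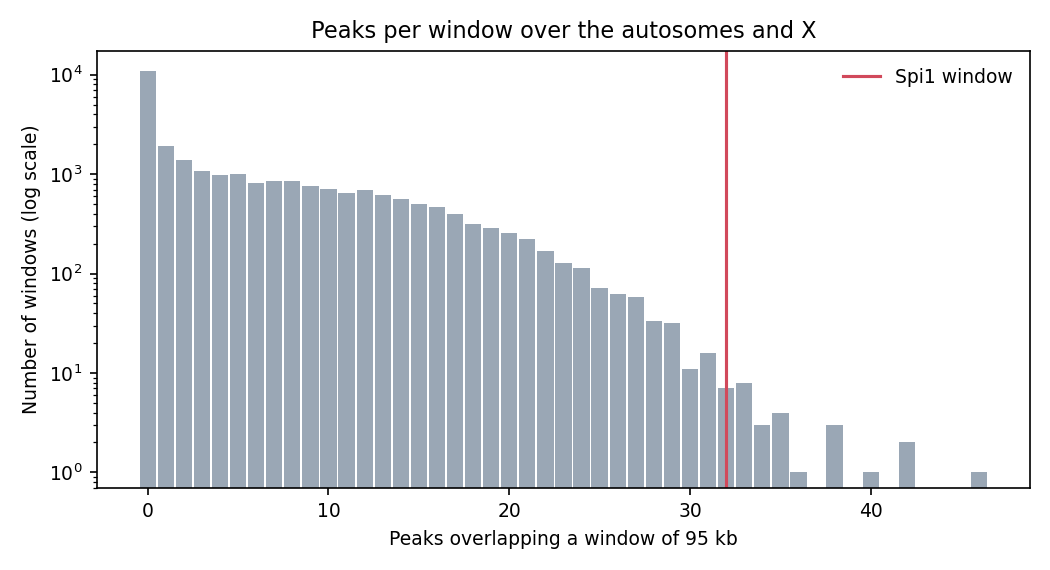
Number of windows of 95 kb (log scale) by the number of peaks that overlap them, over the autosomes and X; the red line marks the Spi1 window. With 32 peaks, Spi1 lies in the upper tail, where 30 windows have as many or more and the fullest has 46.

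The deposited score of a peak carries a trace of averaging. For each score, the smallest whole number of at most 20 that made the product whole, within 1e-06, was kept. If a score is a mean of up to 10 units, each a mean of at most 2 whole numbers, a multiplier of 20 needs all 10 units. It was found in 3 of the 32 Spi1 peaks, or 9.38%, against 14.6% of the list. These were the peak of highest fold in the span, 14.3 kb inside it, the separate peak 16.0 kb inside it, and the first of the 3 close peaks downstream, 49.9 kb from the start. Under the same model 11 of the 32 peaks, or 34.4%, cannot have had all 10 units, against 23.6% of the list, and the multiplier leaves this undecided for 18. Among those 11 were the 3 touching peaks that end at 90928332, whose multipliers were 6, 7 and 8 in order. The peak 10.2 kb upstream, with a relative −log10 q of 10.0, was another, with a multiplier of 6. The score followed −log10 q closely, as 5806.5 beside 580.7 at the peak of highest fold and 2104.3 beside 210.5 at the peak near the span start. The −log10 q of different peaks may therefore be means over different numbers of units, which limits their ranking and the relative values. This was not tested. The list names no samples behind a unit, so no peak can be called present or absent in a genotype or treatment from these values.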

How the data were processed

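ATAC-seq was done by the authors on 19 samples in 10 groups, taken from the sample titles. The submitters' processing notes name deepTools 3.5.1, MACS2 2.2.7.1, Picard 2.27.4 and STAR 2.7.9a, and the build mm39. How reads were shifted, which threshold called a peak and how peaks were joined over samples were not given in the sources used here. Each peak of the deposited list has a score, a fold ratio over local background, a −log10 q and a summit offset, all pooled. Coordinates were read as counted from 1, since the summit offset reached the width in 0 peaks under that reading and in 74 under a count from 0. Distances run from the summit. Relative −log10 q used 100 bins of fold. Depth is unknown and no test was made. Named peaks were every peak within 1 kb of the span start or of the points 14 and 12 kb upstream, the 5 highest by fold and by −log10 q, the widest, and the first and last; others named were chosen after their values were seen. The members and lists were chosen with earlier results of these data known. Relative −log10 q, dense windows and the second reference point were added after seeing the data. The score multiplier and the cut at 20 kb of the span were also not among the planned results. Scripts were tested on simulated data. Planned motif and cell-type marker results were not run, because the sequence and gene tables belong to GRCm38.p6. Scripts ran under Python 3.11.15 with matplotlib 3.10.9, scipy 1.17.1, pandas 2.3.3 and numpy 2.4.6.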

Additional observations from a re-analysis of the deposited data

How the results depend on the processing

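Of 22 alternative values over 6 results, 15 stayed within 1.5 times the count or within the 95% interval of the value, which treats peaks or windows as independent, and 7 moved. When peaks below the list's median −log10 q were dropped, 16 of the 32 peaks remained, 98.97% of windows held fewer peaks, against 99.89% with all peaks, and the median relative −log10 q was 1.60. These follow in part from removing weak peaks. The span with 10 kb on each side held 21 peaks, since it is shorter, and its median relative −log10 q was 4.42, over 1.5 times the 2.19 of the full window. With peaks within 100 bp merged, 99.7% of windows held fewer, and among windows that hold a peak, 99.8% did. By −log10 q in place of fold, the strongest peak lay at -11.7 kb in place of -39.5 kb. The median distance was 1.14 kb from the second reference point and 15.5 kb from the span start, within the wide interval of 0.663 to 27.5 kb. A change of origin shifts every distance by 14.3 kb, and counting the start from 0 shifts each by 1 bp. Both outcomes were fixed in advance, although they count among the 15. Distances from the second reference point, all settings for relative −log10 q and windows placed from the first base were added after seeing the data. Leaving out replicates was not possible in a pooled list. No paired analysis was possible because samples have no values of their own in the list. With the depth unknown, a stretch without a peak may still be accessible below the authors' threshold.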
